A study of Homo sapiens with 2 samples.

Results

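The genes described here are 5 signal transducers of an adipogenesis PCR plate, the kinases Src and Mapk14 and the signal-responsive transcription factors Creb1, Jun and Egr2. They were selected by symbol, as 5 of the 84 genes measured by quantitative PCR in HepG2, a line established from a human hepatoma. The control sample was labelled as control HepG2 cells, and the other sample had received MOES, a water extract of the seeds of Moringa oleifera, for 72 h. Both were grown in medium with 1 g/L of glucose and 10% serum. Each group held 1 sample, so there is no replicate error and no p-value for any value below. The sample title gives 5 mg/mL of MOES and the treatment protocol 2.5 mg/mL, and the deposited tables do not settle which of these they hold. The comparison asked whether the seed extract alters transcripts that steer adipogenesis and lipid metabolism in a liver cell line.

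Src is a membrane-associated tyrosine kinase that relays signals from growth factor receptors and integrins. Mapk14, the p38 alpha kinase, is switched on by stress and inflammatory cytokines, and in brown fat it takes part in the response to cAMP. Creb1 is a leucine zipper factor that sits on cAMP response elements and is activated by phosphorylation, so its own transcript need not change when the pathway is active. Jun, a subunit of the AP-1 factor, and Egr2 (Krox20), a zinc finger factor that acts early in fat cell differentiation, are immediate early genes, whose transcripts appear within minutes of a stimulus and are short-lived. In liver cells these proteins take part in the responses to fasting hormones, growth factors and injury.

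The DNA upstream of the genes is shown because the factors among them recognise known motifs and because Jun and Egr2 shared the latest MOES reading of the 5. The sequences are the 250 bases before an annotated start in RefSeq's GRCh38.p14 table, which held 4 of the 5 genes and no entry for Src. Capitals mark every match, on either strand, to the CRE bound by Creb1 (TGACGTCA), its core TGACG, which lies inside the full CRE, the AP-1 sites TGANTCA and TGACATCA, the EGR site GCGNGGGCG, and the CArG box of serum-responsive genes.
MAPK14, chr6:36027558-36027807, plus strand: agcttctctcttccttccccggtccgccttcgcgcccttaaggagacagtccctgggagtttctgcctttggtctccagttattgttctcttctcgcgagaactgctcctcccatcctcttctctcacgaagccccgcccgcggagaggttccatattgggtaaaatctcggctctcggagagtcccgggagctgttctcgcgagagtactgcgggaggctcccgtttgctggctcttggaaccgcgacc
CREB1, chr2:207529712-207529961, plus strand: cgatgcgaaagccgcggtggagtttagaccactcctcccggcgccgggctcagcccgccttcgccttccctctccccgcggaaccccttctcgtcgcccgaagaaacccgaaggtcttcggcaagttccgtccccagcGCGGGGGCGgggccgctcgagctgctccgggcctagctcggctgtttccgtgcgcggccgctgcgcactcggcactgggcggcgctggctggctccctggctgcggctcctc
JUN, chr1:58784048-58784297, minus strand: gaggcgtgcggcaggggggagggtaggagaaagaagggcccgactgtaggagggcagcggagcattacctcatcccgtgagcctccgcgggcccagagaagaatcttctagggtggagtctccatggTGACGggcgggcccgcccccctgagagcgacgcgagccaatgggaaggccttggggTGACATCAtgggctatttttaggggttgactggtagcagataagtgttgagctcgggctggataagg
EGR2, chr10:62816367-62816616, minus strand: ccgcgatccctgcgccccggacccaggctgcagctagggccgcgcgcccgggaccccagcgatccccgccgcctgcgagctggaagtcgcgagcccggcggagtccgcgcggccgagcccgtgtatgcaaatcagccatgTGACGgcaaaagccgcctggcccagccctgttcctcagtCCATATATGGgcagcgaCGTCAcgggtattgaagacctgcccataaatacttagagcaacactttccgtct

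The JUN window held TGACATCA from 67 to 60 bases before the start and a CRE core from 123 to 119. The EGR2 window held a CArG box from 71 to 62 bases before the start and a CRE core on either side of it, from 110 to 106 and from 54 to 50. EGR2 has 3 annotated starts in the table, and the windows of the other 2 held none of these motifs. The CREB1 window held an EGR site from 112 to 104 bases before the start, and the MAPK14 window held no match. Of 35116 windows of the same length, 21.2% held the core TGACG, 2.37% TGACATCA, 8.41% the EGR site and 1.16% a CArG box. The full CRE, found in 1.65% of all windows, and TGANTCA, found in 6.57%, were in none of the 6 windows of these genes. The motifs were chosen after these sequences were seen, so the shares do not show that the matches are unusual. The matches describe letters in the reference genome and not binding in these cells.

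The readout is the threshold cycle (Ct), at which a well becomes detectably fluorescent: an early (low) Ct stands for much template, and 1 cycle for a factor of 2. The delta Ct is the Ct minus the mean Ct of B2m, Gusb and Hsp90ab1, the reference genes that the deposited values use, and a fold change is 2 raised to the control delta Ct minus the MOES delta Ct. These 3 genes differed between the samples by at most 0.02 cycles, which is less than the spread of the repeat wells given below. The other 2 reference genes were later after MOES, Actb going from 34.05 to 35 and Gapdh from 28.46 to 35. The median of the 84 gene wells went from 30.49 to 32. Which reference is stable was not tested. No value exceeds 35, which is read as a ceiling, and 25 of the 84 genes stood there in the MOES sample against 6 in the control. All 59 MOES gene values under 35 were whole cycles, whereas none of the 78 control values under 35 was. In the same MOES sample the wells of B2m (23.82), Gusb (25.66), Hsp90ab1 (25.3) and the genomic DNA control (29.56) kept decimals. How the gene values came to be whole cycles is not stated. The only repeat wells below the ceiling, 3 reverse transcription controls (RTC) of the control sample, were read at 31.41, 32.01 and 32.1. Their SD was 0.375 cycles. The error of a difference between wells, called the well error here, is then 0.530 cycles (SD). It holds no biological variation and no shift of the control wells between the samples. In the MOES sample these 3 wells were at 35, as were the 3 positive PCR control wells (PPC) in both samples, so no control well shows that a reading of 35 reflects little template. The part of these wells in the results was not tested.

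The plate offers little to check the label of the cells. Of the genes enriched in liver, Agt (angiotensinogen) was read at 33.91 cycles in control cells and at 35 after MOES, and Nr0b2 (the nuclear receptor SHP) 28.76 and 32. The 8 genes listed as adipocyte genes all had a control Ct under 35, as did 78 of the 84 genes. They ran from 25.1 for Adig to 33.89 for Lep, each earlier than Agt and some later than Nr0b2. Gene symbols are written in the mouse style, the deposited annotation lists mouse synonyms, and the genomic DNA well is called MGDC, the name used on mouse plates, whereas the labels name the human plate. Which primers the wells held cannot be told from these files.

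Among the 5 genes, Creb1 and Src were higher in the MOES sample, by 3.56-fold and 1.60-fold, and Mapk14, Jun and Egr2 were lower. Mapk14 was 5.58-fold lower, Jun at least 27.7-fold and Egr2 at least 112-fold, the last 2 as bounds because their MOES wells were at the ceiling. The methods of the study set limits of above 1.5 and below 0.5 on the fold change. By these, 2 of the 5 genes lay above, against 8.33% of all 84 genes, and 3 of the 5 below, against 67.9%. The share below was close to that of the whole plate. With the mean of all 5 reference genes, or the median of the 84 gene wells, as the reference, Mapk14 had a log2 fold change of -0.99 or -0.98 and was no longer below 0.5, and of all 84 genes 26 lay above and 28 below. The values rest on whole populations of cells, in which fewer cells with a transcript and less transcript per cell cannot be told apart. With Gapdh alone as the reference, Mapk14 turned to higher, by at least 4.05 on the log2 scale. Gapdh was itself at the ceiling in the MOES sample, so Jun and Egr2, with computed values of 1.74 and -0.28, have no known direction against it. The same holds against Actb, also at the ceiling, and against the mean of all 5 reference genes.

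**Figure D1:**
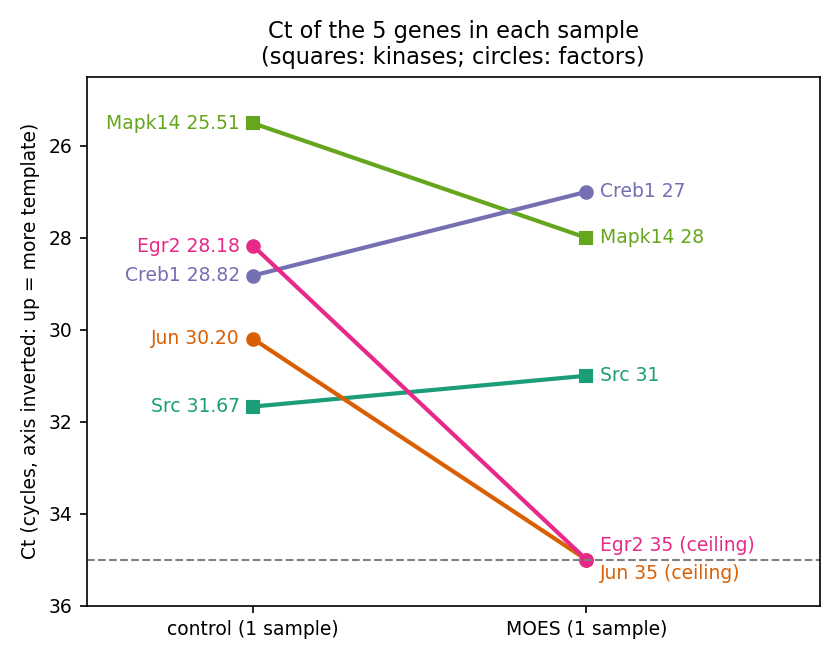
Ct in cycles (inverted axis, so that more template is higher) of the 5 genes in the control and the MOES sample, 1 sample each, with squares for kinases, circles for factors and a dashed line at the ceiling of 35. Creb1 and Src move up, Mapk14 moves down from 25.51 to 28, and Jun and Egr2 end at the ceiling.

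The 2 kinases moved apart. The Ct of Mapk14 was 25.51 in control cells and 28 after MOES. It was the earliest of the 5 genes in the control and the ninth earliest of the plate, and its well came 2.49 cycles later after MOES. As a level, the deposited 2 to the power of minus delta Ct, it stood at 66.4% of the mean of the reference genes in control cells and at 11.9% after MOES. The log2 fold change of -2.48 was 4.68 times the well error. Mapk14 lay 0.705 below the plate median of -1.77, a gap smaller than the SD of 0.750 for a difference between the log2 fold changes of single genes. Outside the 5 genes, 7 lay within 1 cycle of Mapk14 in the control, with a median log2 fold change of -1.75. After MOES 3 of these were earlier than Mapk14, 3 equal to it and 1 later, so it did not stand apart from them. If values were rounded to the nearest cycle, 28 could stand for up to 0.5 cycle more or less, which puts the fold change between 0.127 and 0.253. If decimals were dropped instead, the fold change would be at most 0.179.

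The Ct of Src was 31.67 in control cells and 31 after MOES. It was the latest of the 5 genes in the control, with a level of 0.925% of the reference mean, and reached 1.49% in the MOES sample. Its log2 fold change of 0.68 was only 1.28 times the well error, and rounding to the nearest cycle would allow a fold change from 1.13 to 2.27. Dropped decimals would make it at most 1.60, and the well could then have been later than in the control. The difference of Src between the samples is therefore not resolved from well-to-well spread, although it placed seventh highest among the 84 genes. Its place on the plate went from rank 57 to rank 22, counted from the earliest well, as most other wells were later after MOES. Of the 24 genes outside the 5 that lay within 1 cycle of Src in the control, 22 were later than Src in the MOES sample.

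Creb1 stood out among the factors. Its Ct was 28.82 in control cells and 27 after MOES, which are levels of 6.70% and 23.8% of the reference mean. The log2 fold change of 1.83 was 3.45 times the well error and the fourth highest of the plate. Rounding to the nearest cycle would put the fold change between 2.51 and 5.03, and dropped decimals would make it at most 3.56. Creb1 moved from rank 26 to rank 4 of the 84 genes. All 16 genes outside the 5 that lay within 1 cycle of it in the control had a later MOES well than Creb1, with a median of 32. Only 9 of the 84 genes had an earlier well after MOES, and Creb1 and Src were 2 of them.

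The immediate early genes Jun and Egr2 were both at the ceiling after MOES. Egr2 was read at 28.18 cycles in control cells, a level of 10.4% of the reference mean, and at 35 after MOES. Jun was read at 30.2 cycles in control cells, a level of 2.57%, and also at 35 after MOES. The log2 fold changes, -6.81 for Egr2 and -4.79 for Jun, are upper bounds. Egr2 had the lowest value of the plate and Jun the eighth lowest, but genes at the ceiling have no order among themselves.

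A late control reading can bring a gene to the ceiling after a small shift, so the control readings of such genes were compared. The 19 genes that reached 35 in the MOES sample alone had control Ct values from 28.18 to 34.34, with a median of 32.44. Egr2 was the earliest of these 19 and Jun the fourth earliest. It follows that the 18 genes with an earlier control well than Egr2 stayed below the ceiling, and their highest MOES Ct was 34. Within 1 cycle of Egr2 in the control lay 17 genes outside the 5, of which 1, Tsc22d3, was also at 35, and the median MOES Ct of the 17 was 31. Within 1 cycle of Jun lay 17 genes outside the 5 too, of which 2 were at 35, with a median of 32.

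**Figure D2:**
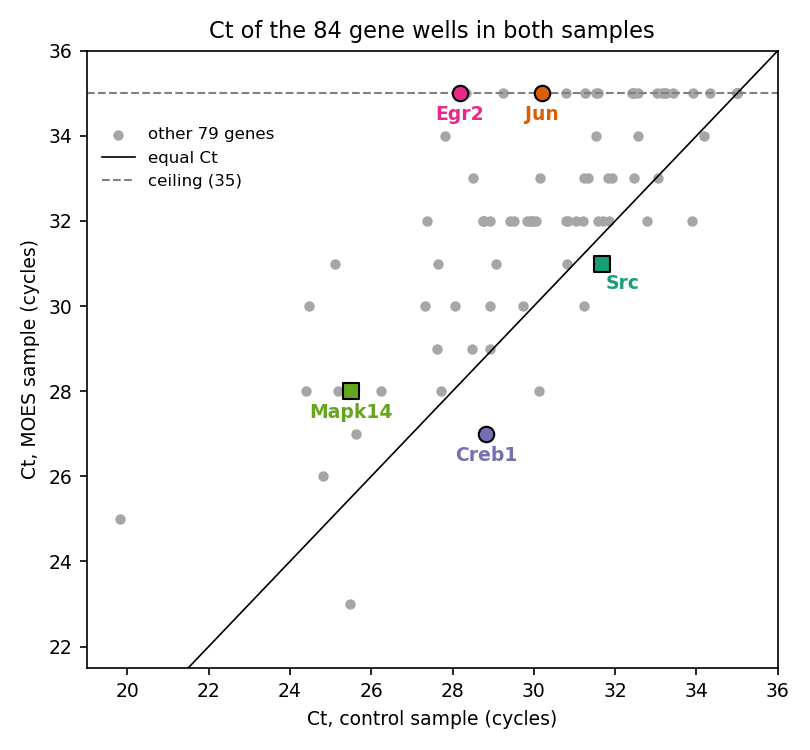
Ct in the MOES sample against Ct in the control sample, in cycles, for the 84 gene wells, with the 5 genes in colour (squares for kinases, circles for factors), the other 79 in grey, a solid line at equal Ct and a dashed line at the ceiling of 35. Creb1 and Src lie below the line of equal Ct, and Egr2 and Jun lie on the ceiling left of most other wells there.

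The order of the wells changed with MOES. In the control it ran from Mapk14 through Egr2, Creb1 and Jun to Src, over 6.16 cycles. Egr2 and Creb1 were neighbours there, 0.64 cycles apart, which is close to the well error of 0.530 cycles. In the MOES sample Creb1 came first, 1 cycle before Mapk14, Src followed, and Jun and Egr2 shared the ceiling at least 8 cycles after Creb1. Primer efficiency and product length differ between wells and are not given, so this is an order of detection and not of transcript abundance.

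Differences between the genes' log2 fold changes do not depend on the reference. Of the 10 pairs, 7 involve Jun or Egr2 and give bounds, and the pair of Jun and Egr2 gives nothing. Creb1 exceeded Mapk14 by 4.31 on the log2 scale and Src exceeded Mapk14 by 3.16, against an SD of 0.750 for a difference of this kind. Creb1 exceeded Src by 1.15, or 1.53 such SDs. Mapk14 exceeded Jun by at least 2.31 and Egr2 by at least 4.33, and Creb1 exceeded Egr2 by at least 8.64. Of the 9 pairs other than Jun with Egr2, 8 differed by more than 2 SD, the exception being Creb1 with Src.

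The split between higher and lower did not follow the split between kinases and factors. The mean log2 fold change was -0.90 for the 2 kinases and at most -3.26 for the 3 factors, so the kinases were higher by at least 2.36. The range within each class was larger, 3.16 for the kinases and at least 8.64 for the factors. With Jun and Egr2 left out for their ceiling readings, Creb1 alone stood for the factors and the difference reversed to -2.73, and it was 0.36 when all later readings were set to 32. No difference between the classes is therefore established.

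**Figure D3:**
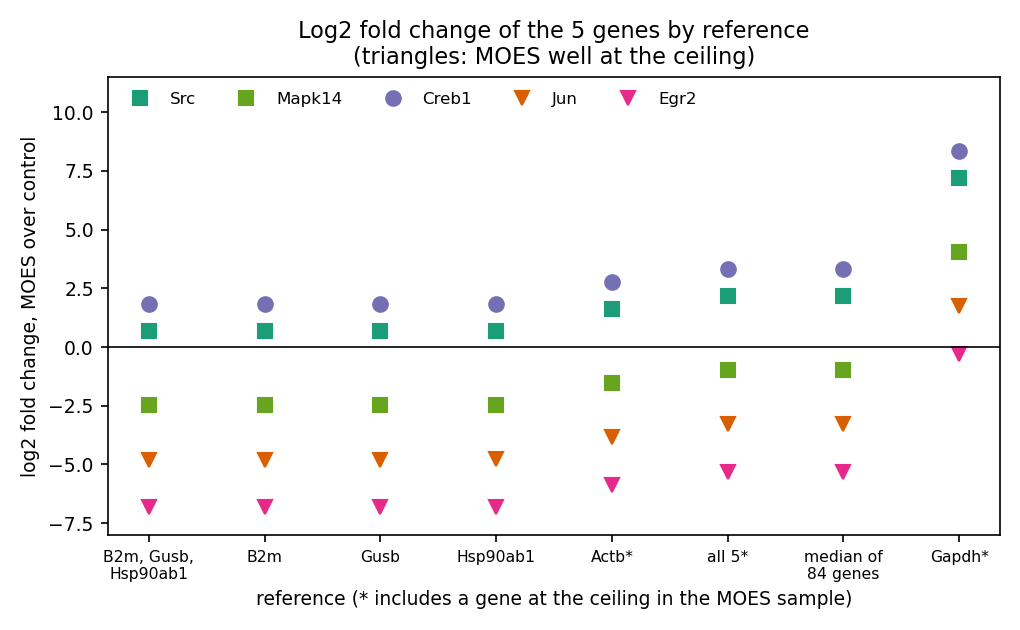
Log2 fold change of the 5 genes, MOES over control, under 8 choices of reference (squares for kinases, circles and triangles for factors, with triangles for the wells at the ceiling). The distances between genes are equal in every column, while with Gapdh alone Mapk14 lies above 0. Jun and Egr2 have no known direction with Gapdh, Actb or all 5 as the reference, since these include a gene at the ceiling.

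Genes that act with these 5 were described from 4 lists, whose median log2 fold changes are read beside the plate median of -1.77. The first held 7 other inducible or signal-responsive factors, with a median of -1.06, of which 1 lay above 1.5 and 4 below 0.5, against 8.33% and 67.9% of all 84 genes. Cebpd, an early C/EBP factor of fat cell differentiation and of the acute phase response in liver, was 5.58-fold higher, with a Ct of 25.47 in control cells and 23 after MOES. Cebpb, which Creb1 and Egr2 are known to induce at the start of adipogenesis, was 9.51-fold lower, with 28.74 and 32. Tsc22d3 (GILZ), a glucocorticoid-induced factor, was at least 102-fold lower, and Hes1, the Notch target, at least 5.74-fold lower, both at the ceiling after MOES. The shear-responsive factor Klf2 was 2.08-fold lower. Klf4 had a fold change of 0.697, and Ddit3 (CHOP), a stress-induced factor that p38 phosphorylates, had 0.959, with 28.93 and 29. Of the 7, 2 were at the ceiling after MOES, against 25 of the 84 genes.

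The second list, as reported here, held 3 genes of the cAMP and p38 route to brown fat, with a median of -2.49, of which 1 lay above 1.5 and 2 below 0.5, shares to be read against the same background. Ppargc1a, a coactivator whose gene Creb1 and p38 signals induce, was 45.9-fold lower, with a Ct of 24.47 in control cells and 30 after MOES. Ucp1, the uncoupling protein of brown fat, was 5.62-fold lower, with 29.5 and 32. Dio2, the deiodinase that activates thyroid hormone, was 2.36-fold higher, with 31.23 and 30.

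The third list held 5 growth factor and cell cycle genes upstream or downstream of Src and Jun, with a median of -1.18. None lay above 1.5 and 3 lay below 0.5, against 8.33% and 67.9% of all 84 genes, so the share below was close to that of the plate. Fgf2, a growth factor, was 4.17-fold lower, Ccnd1 (cyclin D1), a target of AP-1, 2.30-fold lower, and Cdkn1a (p21), the cyclin-dependent kinase inhibitor, 2.27-fold lower. Fgf1 had a fold change of 0.818, and Fgf10, at 35 after MOES, had an upper bound of 0.637. The other protein kinases of the plate were Insr, the insulin receptor, 2.58-fold lower with a Ct of 25.62 and 27, and Cdk4, the G1 kinase, with a fold change of 0.835 and a Ct of 29.73 and 30. Of the kinases Src, Mapk14, Insr and Cdk4, only Src had an earlier well in the MOES sample, against 9 of all 84 genes. The difference of Src was not resolved from well-to-well spread, so it does not set Src apart from the other kinases. The fold changes of all the lists use B2m, Gusb and Hsp90ab1. The median Ct of the 84 gene wells as the reference raised each log2 fold change by 1.5. That exceeds the falls of Klf2 (-1.06), Cdkn1a (-1.18), Ccnd1 (-1.20) and Insr (-1.37), which would then lie above 0. The other listed genes below 0.5 would stay lower.

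**Figure D4:**
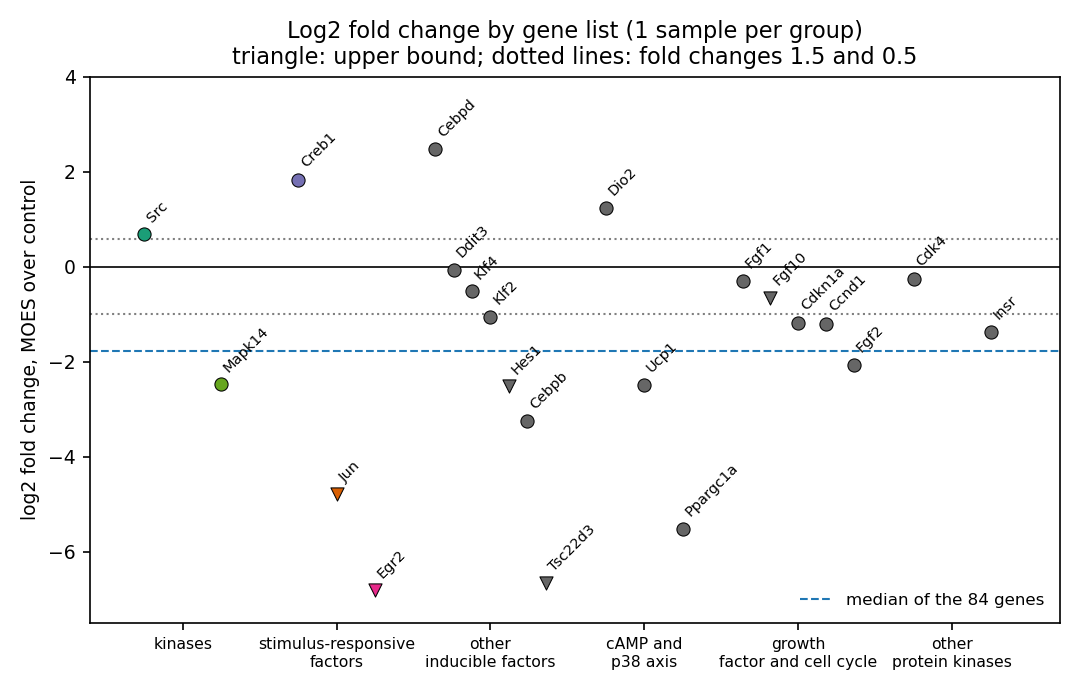
Log2 fold change, MOES over control, of the kinases, the factors and the 4 lists of related genes, with triangles for upper bounds, dotted lines at fold changes of 1.5 and 0.5 and a dashed line at the median of the 84 genes (-1.77). Creb1, Src, Cebpd and Dio2 lie above the upper dotted line, and Egr2 and Tsc22d3 lie lowest.

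The genes with the most similar readings were found by the distance in cycles over the 2 samples. Mapk14 lay 0.03 cycles from Rb1, the retinoblastoma protein gene, and 0.33 from Shh, a hedgehog ligand. Egr2 lay 0.14 cycles from Tsc22d3 and 1.06 from Wnt3a, a WNT ligand. Jun lay 0.58 cycles from Sirt3, a mitochondrial deacetylase, and 0.95 from Twist1, a basic helix-loop-helix factor. Src lay 0.85 cycles from Gata2, a zinc finger factor, and 1.00 from Fgf1. Creb1 lay 1.65 cycles from Acacb, a mitochondrial acetyl-CoA carboxylase. With 2 samples, this likeness says only that the wells crossed the threshold at similar cycles.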

How the data were processed

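Total RNA from 1 control and 1 MOES sample of HepG2 cells was reverse transcribed and run with SYBR Green on a 96-well adipogenesis array. The authors deposited the Ct of each well (a score in cycles, headed as an average, with empty SD columns), the delta Ct, which is on a log2 scale and lower for higher levels, and the level relative to the reference genes, a ratio. Of 31 subsets of the reference genes, B2m, Gusb and Hsp90ab1 gave the deposited delta Ct to within 0.0057 cycles. The authors' fold change table, their own comparison, was not used. Its header served only to read Group 1 as the treated sample. The study states that experiments were repeated at least in triplicate, but not whether these values average such repeats.

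Fold changes were computed from the Ct and counted as past the study's limits above 1.5 or below 0.5. Wells at 35 in the MOES sample alone give bounds, with 35 read as little template. No test was made, with 1 sample per group, and the precision is that of single wells. The members and lists were chosen with earlier results of these data known, and the upstream motifs after their sequences were seen. Named genes are the members, the listed genes, and the 2 genes nearest to each member. From these, 2 genes are left out and not reported here. The calculations were tested on simulated data. Alternatives covered reference genes, late wells, rounding, limits, sources and summaries. Of the 84 symbols, 83 matched a current human symbol of GRCh38.p14. Python 3.11.15, numpy 2.4.6, pandas 2.3.3 and matplotlib 3.10.9 were used.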

Additional observations from a re-analysis of the deposited data

Results flagged for a closer look

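The genomic DNA control (MGDC), which entered no comparison of genes, was read earlier after MOES than in control cells, at 29.56 against 29.9 cycles. Relative to the reference genes this is a log2 fold change of 0.35, smaller than the well error of 0.530 cycles. The well was earlier than the median of the 84 genes in both samples, 30.49 in the control and 32 after MOES. It was also earlier than Src in both, 31.67 and 31. Mapk14 and Creb1 were earlier than this well in both samples, and Egr2 in the control only. Jun was later than this well in both samples, at 30.2 in control cells and at the ceiling of 35 after MOES. The part of genomic DNA in the results was not tested.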

How the results depend on the processing

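Over 18 alternatives, Src and Creb1 kept their direction wherever a value was computed. Dropped decimals in the MOES wells were not among these alternatives. Each of B2m, Gusb or Hsp90ab1 alone, and the deposited delta Ct or relative level, moved no result by more than the well error. A reference adds the same amount to each gene. Log2 fold changes are given in the order Src, Mapk14, Creb1, Jun, Egr2. They were 1.62, -1.54, 2.77, -3.85 and -5.87 with Actb, 2.17, -0.99, 3.32, -3.30 and -5.32 with all 5 reference genes, and 2.18, -0.98, 3.33, -3.29 and -5.31 with the median over the 84 gene wells, members included. With Gapdh they were 7.21, 4.05, 8.36, 1.74 and -0.28, so that Mapk14 reversed. Jun changed sign only with its reading of 35 taken as it stands and has no known direction there, nor has Egr2. On the same terms 4 members were above 1.5 and 0 below 0.5, Jun among the 4. With all 5 reference genes or the median over the gene wells, Mapk14 was no longer below 0.5, which left 2 members, Jun and Egr2, there. With all 5 reference genes this takes their readings of 35 as they stand. Of all 84 genes, 7 lay above and 57 below, against 21 and 37 with Actb, 26 and 28 with all 5 reference genes or with the median Ct, and 81 and 0 with Gapdh. Actb and Gapdh are at the ceiling in the MOES sample, so shifts with either, or with all 5 reference genes, are minimum shifts. These references leave Jun and Egr2 without a direction, and the counts with them take readings of 35 as they stand.

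With Ct above 32 set to 32, which by construction removes later differences, Jun was -1.79, Egr2 -3.81 and the difference between kinases and factors 0.36. That difference was 3.89 with medians and -2.73 without the wells at 35, which leaves Creb1 as the only factor. Only 1 member, Creb1, lay above the upper limit when MOES wells were raised by 0.5 cycle, with limits of 2 and 0.5, or with limits of 2 SD. No paired analysis was possible because there was only a single sample in each group. The ceiling limits 2 of the 5 genes and whole-cycle MOES values the other 3.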
